A study of Mus musculus with 9 samples.

Results

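Foxd3, Ednrb and Pax7 are genes of the early neural crest, and the question asked here was in which neural crest-derived cells of the mouse embryo at E12.5 their transcripts were still measured. The members were the probes that carry one of these 3 symbols in the study's table of altered probes, which names 306 of its 347 probes. There was 1 probe for each gene, among 23473 probes on the array. Foxd3 and Ednrb were highest in trunk EGFP+ cells, 13.7-fold and 11.2-fold above craniofacial EGFP+ cells. Pax7 showed the opposite order: it was measured in craniofacial EGFP+ cells and did not exceed the limit set by the blank spots, their mean plus 2 SD, on any trunk EGFP+ array.

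The embryos were P0-Cre/Floxed-EGFP at E12.5, sorted into cells with and without EGFP before RNA was taken. In them the promoter of myelin protein zero drives Cre, and a cell in which Cre has acted, with its descendants, carries EGFP. From the craniofacial region there were 2 arrays of EGFP+ cells (Cp) and 2 of EGFP- cells (Cn), and from the trunk 3 of EGFP+ cells (Tp) and 2 of EGFP- cells (Tn). All 4 groups came from double transgenic embryos of C57/BL6J origin crossed to ICR, and the heart field had been cut away from the trunk, so Tp lacks that tissue. EGFP records that Cre was once active in a cell or its ancestors, not that a cell was still a migrating crest cell. The EGFP- cells are a mixture of all cells of the region without EGFP. Whether crest-derived cells were among them was not tested. The labels do not say whether replicates came from separate litters, and the p-values speak only of the spread among these arrays. In such bulk samples, fewer cells of a type and less RNA per cell cannot be told apart.

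The neural crest arises at the border of the neural tube, leaves it and migrates. In the head it gives rise to bone, cartilage and connective tissue, and along the whole axis to sensory and autonomic neurons, glia and melanocytes. Pax7, a paired box transcription factor, marks the neural plate border of the chick and cranial crest cells of the mouse, and later marks muscle progenitors and parts of the dorsal central nervous system. Foxd3, a forkhead transcription factor, is switched on in premigratory crest and is kept in glial precursors. Ednrb, the receptor for endothelin 3, is needed for the enteric nervous system and for melanocytes.

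Upstream sequence is shown for Foxd3 and Ednrb because both had their highest level in the same cells. The sequences are those of RefSeq on GRCm38.p6, where all 3 genes matched 1 window of 250 bases before the annotated start. Foxd3 lies on chromosome 4, plus strand, and its window is chr4:99656049-99656298. The capitals mark a cyclic AMP response element (TGACGTCA) and an E-box (CACGTG).
Foxd3: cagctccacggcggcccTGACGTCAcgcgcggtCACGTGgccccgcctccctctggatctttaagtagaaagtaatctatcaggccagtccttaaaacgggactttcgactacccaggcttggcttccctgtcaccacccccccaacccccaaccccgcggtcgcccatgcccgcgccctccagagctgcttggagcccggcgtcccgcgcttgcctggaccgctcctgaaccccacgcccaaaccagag
Ednrb lies on chromosome 14, minus strand, and the 30 bases shown are chr14:103843877-103843906, read on the minus strand. The capitals mark a match to the AP-2 motif GCCNNNGGC, the letters read by Tcfap2a and Tcfap2c.
Ednrb: attgacgtatGCCCTTGGCcgctaggtgcc

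The same letters were searched on both strands of all 32851 windows. The AP-2 motif was in 13.7% of windows and matched in Ednrb but not in Foxd3 or Pax7. TGACGTCA was in 1.5% of windows and CACGTG in 6.0%, and of the 3 genes each matched in Foxd3 alone. The SOX motifs ACAAAG or ACAATG (25.2% of windows) and the E-box CACCTG (17.2%) matched in none of the 3. The palindromes read alike on both strands, and no 2 of the matches overlapped. The Ednrb and Pax7 windows lie inside the longest span RefSeq gives for the gene, and Pax7, on chromosome 4 and the minus strand, held no match to print. A match describes letters in a window and is not evidence of binding.

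Each array had 1 colour. The deposited processed value of a probe follows the reading of its spot less the level of blank spots, with every array brought to a median of 25, and levels below are log2 of that value unless a reading is named. A probe counts as above the limit where its spot reading exceeds the mean of the blank spots by 2 SD. Between 72.8% and 90.2% of probes did so on the 9 arrays. The median spot reading was 2.28 to 3.21 times the mean blank on the 8 arrays that the study used, and 1.81 times on Tp replicate 3, which the study's table leaves out and which stays outside the fits unless all 9 arrays are named. Tests are from limma over 21807 probes, with Benjamini-Hochberg adjusted p under 0.05 as the threshold. The study picked the probes of its table for change across the same 8 arrays. The folds and calls over these arrays are therefore no independent evidence, and Tp replicate 3 is the array that this choice did not use.

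**Figure D1:**
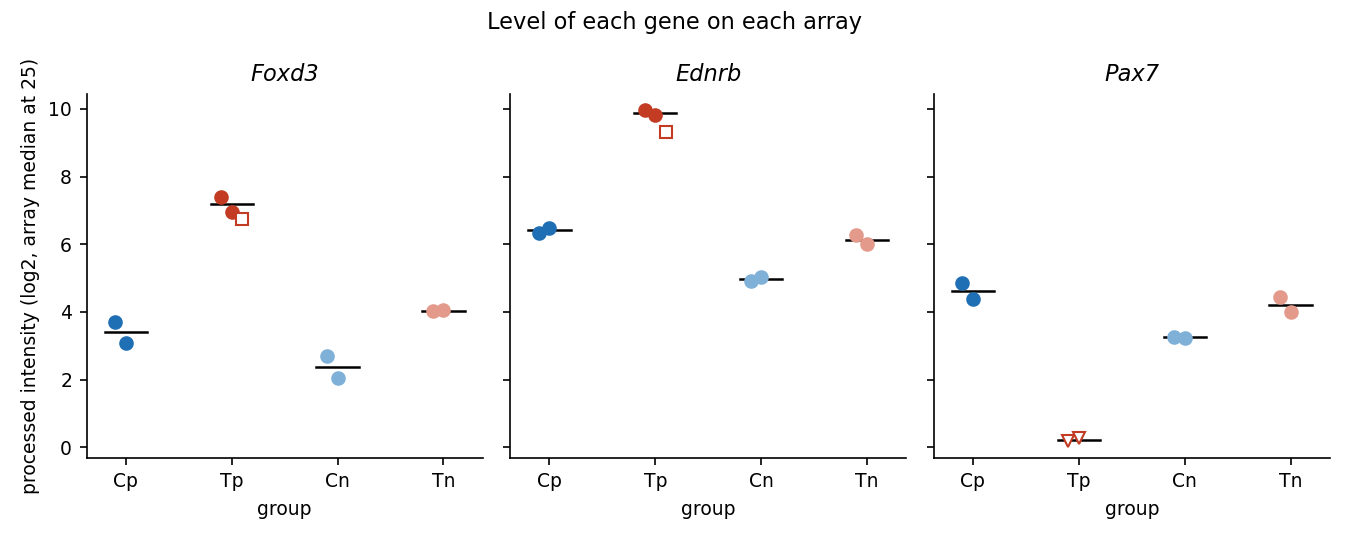
Log2 processed intensity of each gene (y axis, array median at 25) on each array, by group (x axis). Filled circles are arrays of the fit, the line is their mean, the open square is Tp replicate 3, and open triangles are spots not above the limit of the blank spots. Foxd3 and Ednrb stood highest in all 3 Tp arrays, and Pax7 was not above the limit in Tp, where replicate 3 has an empty cell and is not drawn.

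Foxd3 stood apart in trunk EGFP+ cells. Its log2 level was 7.40, 6.96 and 6.76 on Tp replicates 1, 2 and 3, and 4.02 and 4.07 on the Tn arrays. In the head it was 3.72 and 3.09 on the Cp arrays and 2.71 and 2.05 on the Cn arrays. All 3 Tp arrays lay above all 6 others. Tp replicate 3 was outside the choice of probes, but the 6 arrays it is set against were not. The share of all probes with such an order was not counted. The order of the means was Tp (7.18 ± 0.31), Tn (4.04 ± 0.04), Cp (3.41 ± 0.44) and Cn (2.38 ± 0.47; log2, SD, n = 2 each).

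The Foxd3 spots outside Tp were dim. The readings were 30 and 42 on Cp against limits of 14.8 and 29.6, and 36 and 42 on Tn. On Cn replicate 2 the reading of 31 was barely above the limit of 30.5. On Cn replicate 1 the reading was 18 against a limit of 14.0. Foxd3 was therefore measured above the blanks on all 9 arrays, but on Cn replicate 2 only narrowly.

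Between the EGFP+ groups, Foxd3 was lower in Cp than in Tp 13.7-fold, or -3.77 on the log2 scale (standard error, SE, 0.32, adjusted p = 0.000162). In that comparison 8.1% of all probes tested passed, and all 3 members did. Within the trunk, Foxd3 was higher in Tp than in Tn by 3.13 (SE 0.32, adjusted p = 0.00058), where 5.33% of probes passed and again all 3 members. Within the head the difference of Cp from Cn was 1.02 and did not pass (SE 0.32, adjusted p = 0.12). There 5.79% of probes passed, with 2 of the 3 members. Between the EGFP- groups Foxd3 was lower in Cn than in Tn by -1.66 (adjusted p = 0.0469), with 1.27% of probes and 1 of the 3 members passing. That call was lost when any 1 of the 8 arrays was left out (adjusted p 0.0522 to 0.223).

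Ednrb was likewise highest in trunk EGFP+ cells. Its log2 level was 9.96, 9.82 and 9.33 on the Tp arrays, the lowest of them being the array outside the study's choice. It was 6.34 and 6.48 on Cp, 6.26 and 6.01 on Tn, and 4.92 and 5.03 on Cn. The Tp arrays read highest, Cp and Tn lay side by side, and Cn read lowest. As for Foxd3, the share of all probes with such an order was not counted.

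The means were 9.89 ± 0.10 in Tp, 6.41 ± 0.10 in Cp, 6.13 ± 0.18 in Tn and 4.98 ± 0.08 in Cn (log2, SD, n = 2 each). Every Ednrb spot was well above its limit, with the lowest reading, 45, on Cn replicate 1, where the limit was 14.0. On the Tp arrays the readings were 1310, 1264 and 1108. No Ednrb reading was near the level of the blanks.

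Ednrb was lower in Cp than in Tp 11.2-fold, or -3.48 on the log2 scale (SE 0.24, adjusted p = 6.19e-05). It was higher in Tp than in Tn by 3.76 (SE 0.24, adjusted p = 5.87e-05). It was also higher in Cp than in Cn, by 1.43 (SE 0.24, adjusted p = 0.00695), so both EGFP+ groups exceeded the EGFP- cells of their own region. That craniofacial call was lost without Cp replicate 2 and without Cn replicate 1. The log2 difference lay between 1.36 and 1.51 over all 8 leave-outs. Between Cn and Tn the difference was -1.16 (SE 0.24, adjusted p = 0.0565) and did not pass.

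Pax7 had the opposite pattern. Its log2 level was 4.85 and 4.38 on Cp, 4.43 and 4.005 on Tn, and 3.26 and 3.24 on Cn. On Tp replicates 1 and 2 it was 0.18 and 0.27, and on Tp replicate 3 its processed cell was empty. The Cp and Tn arrays overlapped, Cn lay below them, and Tp lay far below all 3. Here too the share of all probes with such an order was not counted.

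The Tp values of Pax7 are not levels but readings close to the blanks. The readings were 14, 16 and 35 on the 3 Tp arrays, against limits of 15.6, 17.5 and 38.7. On the other 6 arrays the Pax7 spot was above its limit, with readings of 47 and 64 on Cp, 38 and 40 on Tn, and 23 and 37 on Cn. Pax7 was thus above background in 3 of the 4 groups, and in Tp it was not well above background on any array.

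For Pax7 in Tp only a bound can be given. The bound sets each Tp array at the median processed value of probes whose reading lay up to 1 unit above the limit. Against that floor the mean of Pax7 was at least 11.4-fold higher in Cp, 8.69-fold higher in Tn and 4.44-fold higher in Cn. These bounds hold for group means on the scale of the processed values. They leave out the spread among the arrays of the brighter group. With the third Tp array the bounds were 10.6-fold, 8.03-fold and 4.11-fold. In the fit, which used the measured values, Cp against Tp gave an adjusted p of 5.06e-05 and Tp against Tn one of 7.82e-05.

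Within the head, Pax7 was higher in Cp than in Cn by 1.36 on the log2 scale (SE 0.27, adjusted p = 0.0173). It did not pass without Cp replicate 1 (adjusted p = 0.147), Cn replicate 1 (adjusted p = 0.0932) or Cn replicate 2 (adjusted p = 0.0849). The difference between Cn and Tn was -0.97 (SE 0.27, adjusted p = 0.156). In this fit Ednrb and Pax7 thus passed as higher in Cp than in Cn and Foxd3 did not. The Foxd3 call depends on the blocking: with the scan as a block the same difference of 1.02 passed (adjusted p = 0.0264), and with the replicate number as a block also (adjusted p = 0.044).

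**Figure D2:**
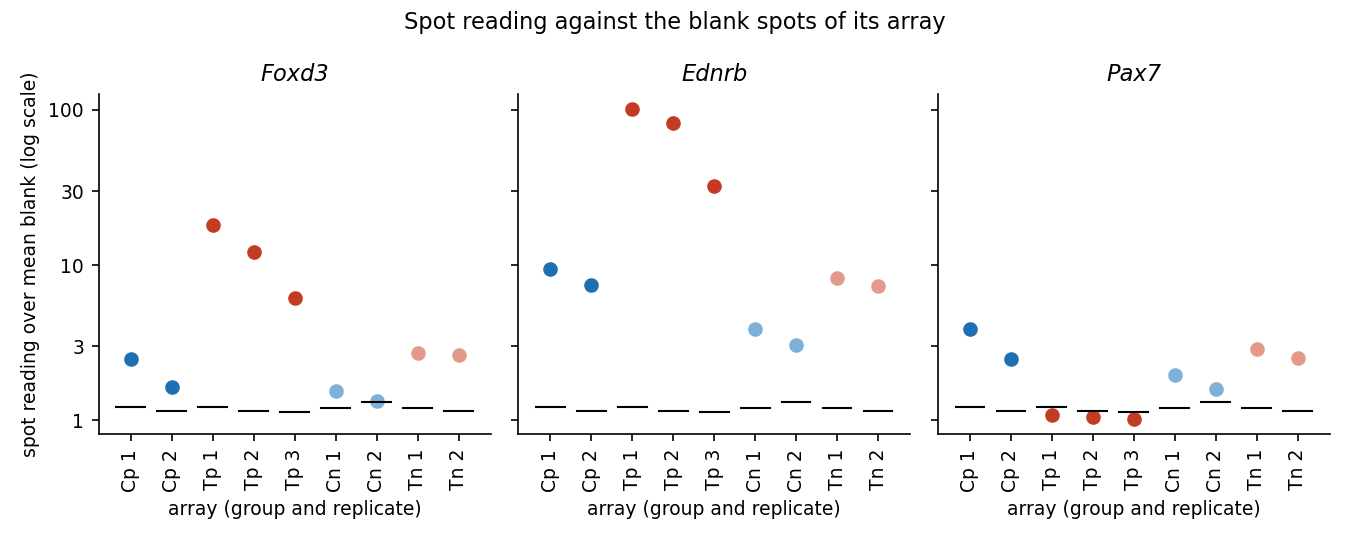
Spot reading divided by the mean of the blank spots (y axis, log scale) on each of the 9 arrays (x axis, group and replicate). Black bars mark the limit of that array, the mean blank plus 2 SD. Pax7 lies under the bar on all 3 Tp arrays, and Foxd3 lies just above it on Cn replicate 2.

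Next to each other in the order of levels, Cp and Tn could not be told apart by the test for any member. This comparison was added after the levels were seen, and 4.21% of all probes passed in it. The log2 difference of Cp from Tn was -0.64 for Foxd3 (SE 0.32, adjusted p = 0.497), 0.28 for Ednrb (SE 0.24, adjusted p = 0.804) and 0.40 for Pax7 (SE 0.27, adjusted p = 0.701). With 2 arrays a group, differences of this size were not detectable over all probes, and the levels are not shown to be alike.

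The difference between the regions was not the same in EGFP+ and EGFP- cells. The EGFP+ difference, Cp minus Tp, less the EGFP- difference, Cn minus Tn, was -2.11 for Foxd3 (SE 0.46, adjusted p = 0.0283), -2.32 for Ednrb (SE 0.33, adjusted p = 0.00497) and 5.36 for Pax7 (SE 0.38, adjusted p = 0.000531). All 3 members passed, against 5.55% of all probes. For Foxd3 and Ednrb the mean of the head was the lower in both fractions, by more in EGFP+ cells, although between Cn and Tn Ednrb did not pass (adjusted p = 0.0565) and the Foxd3 call was lost without any 1 array. For Pax7 the signs differed: the head was higher in EGFP+ cells, while Cn minus Tn was negative and did not pass. The value for Pax7 contains Tp readings under the limit, so its size is not a bound. The Foxd3 call did not hold without 5 of the 8 arrays, which were Cp replicate 2, Tp replicate 1, Cn replicate 1 and both Tn replicates (adjusted p 0.068 to 0.109).

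The arrays were scanned on 4 occasions, and a scan is here only a date of reading the slides. Scan 1 held replicate 1 of every group, scan 2 the second replicates of the head, scan 3 those of the trunk, and scan 4 Tp replicate 3. Within scan 1 the log2 difference of Cp from Tp was -3.68 for Foxd3 and -3.62 for Ednrb, each within 0.3 of the difference of the group means. For Pax7 the Cp reading of that scan was above its limit and the Tp reading was not. The difference of Tp from Tn was 3.38 in scan 1 and 2.89 in scan 3 for Foxd3, and 3.70 and 3.81 for Ednrb. The difference of Cp from Cn was 1.002 in scan 1 and 1.04 in scan 2 for Foxd3, 1.42 and 1.45 for Ednrb, and 1.59 and 1.14 for Pax7. Where 2 scans held both groups, these differences kept their sign.

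Folds and calls of the members differed between the processed values and a setting with another background. The scanner also reads a ring around each spot, and the ring followed the spot: across probes the logs of the 2 correlated at 0.909 to 0.985 per array. With the ring as background and an offset of 50 added, Foxd3 still passed as lower in Cp than in Tp, at -0.92 (adjusted p = 0.0235), and higher in Tp than in Tn, at 0.90 (adjusted p = 0.0323). Ednrb passed in the same comparisons, at -2.56 (adjusted p = 0.0144) and 2.63 (adjusted p = 0.0138). The ring setting differs from the processed values in the offset and in quantile normalization too, not in the background alone. With the blank spots in place of the ring and all else equal, Cp over Tp was -1.78 for Foxd3 and -2.87 for Ednrb. In the ring setting 0.197% of probes passed between Cp and Tp and 0.128% between Tp and Tn, and the members counted here were 2 of 3 in both. No member passed between Cp and Cn, where 0.0688% of probes did, between Cn and Tn (0.0321%) or in the interaction of region and EGFP (0.0367%).

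Pax7 was lost in the ring setting, with a log2 fold change of 0.21 between Cp and Tp (adjusted p = 0.32) and -0.01 between Tp and Tn (adjusted p = 0.98). Its spot and ring readings were 47 and 38 on Cp replicate 1 and 64 and 36 on Cp replicate 2, and 23 and 19 on Cn replicate 1 and 37 and 27 on Cn replicate 2. On the Tn arrays they were equal, at 38 and 38 and at 40 and 40. A spot that equals its ring leaves nothing above background in this setting. For Foxd3 on Tp replicate 1 the spot read 233 and the ring 165. Which reading is the better background for these slides was not tested. On these arrays the Pax7 result therefore rests on the blank spots as background. With these and the offset of 50 in place of the ring, Pax7 still passed between Cp and Tp, at 0.70 (adjusted p = 0.00546), and between Tp and Tn, at -0.49 (adjusted p = 0.0243).

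**Figure D3:**
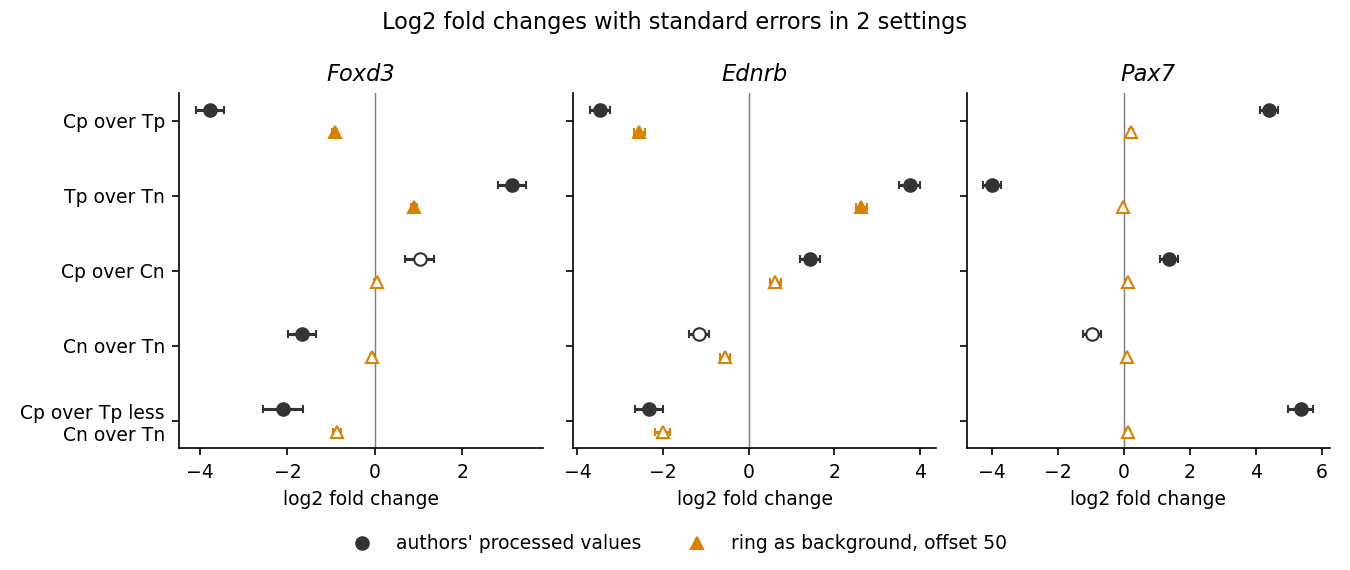
Log2 fold change with its standard error (x axis) for 5 comparisons of each gene (y axis), from the authors' processed values (circles) and with the ring as background and an offset of 50 (triangles). Filled symbols passed an adjusted p of 0.05. Foxd3 and Ednrb passed between Cp and Tp and between Tp and Tn in both settings, Pax7 only with the processed values, where its Tp readings were not above the limit.

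Of 50 regulators and receptors of the neural crest, 6 with a name in the study's table are reported here: the 3 members, Tcfap2a, Tcfap2c and Gbx2. Between Cp and Tp, 2 of the 6 were higher and 3 lower in Cp, with a median log2 fold change of -1.35 against -0.05 over all probes. Between Tp and Tn, 3 were higher and 2 lower in Tp (median 0.74 against -0.03). Between Cp and Cn, 2 were higher and 1 lower in Cp (median 0.28 against 0.10). In the same order, 8.1%, 5.33% and 5.79% of all probes passed in either direction. With the ring setting, the calls were those of Foxd3 and Ednrb alone, between Cp and Tp and between Tp and Tn. There 0.197% and 0.128% of all probes passed, and 0.0688% between Cp and Cn. As all 6 come from the study's choice on these arrays, the counts describe that choice too.

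Tcfap2a, an AP-2 factor of crest induction, was on the trunk side with Foxd3 and Ednrb. Its log2 level was 3.95 ± 0.01 in Tp and 1.44 ± 0.08 in Cp (± SD of 2 arrays), lower in Cp by -2.51 (adjusted p = 0.000258). Its spot was not above the limit on Cp replicate 2 or Cn replicate 2. Tcfap2a was also higher in Tp than in Tn, by 1.16 (adjusted p = 0.0215).

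Tcfap2c, another AP-2 factor, was higher in Cp than in Tp, by 1.81 (adjusted p = 0.00355), as Pax7 was. Unlike Pax7 it was also higher in Cn than in Tn, by 2.60 (adjusted p = 0.00165), and its difference of Cp from Cn was -0.47 (adjusted p = 0.462). Gbx2, a homeobox gene of the anterior hindbrain, was highest in Tn, at 6.47 ± 0.11 (log2, SD, n = 2). It was lower in Tp than in Tn by -2.38 (adjusted p = 0.000447) and lower in Cp than in Cn by -1.04 (adjusted p = 0.0315). The named crest genes thus did not share 1 order of the groups.

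**Figure D4:**
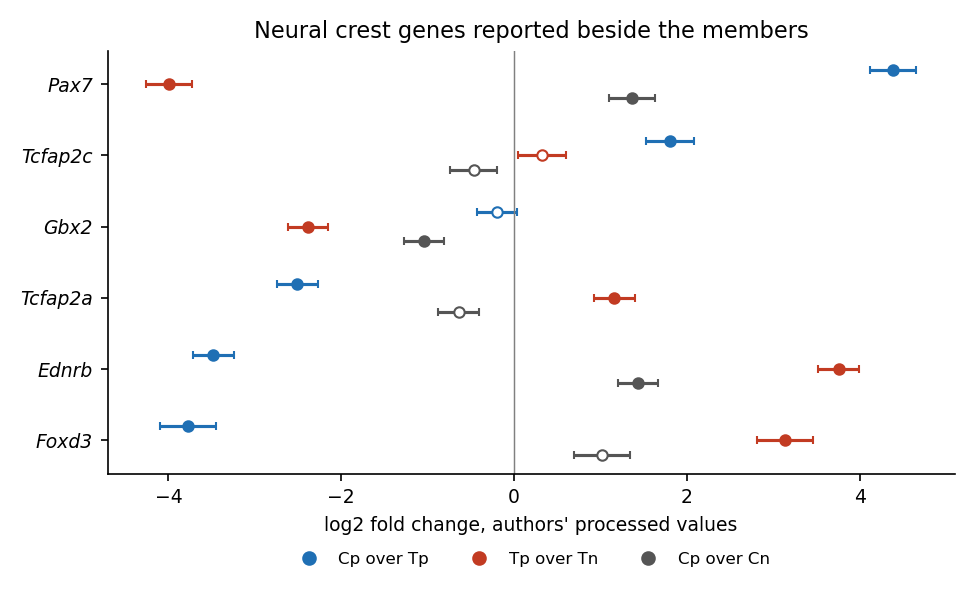
Log2 fold change with its standard error (x axis) of the 6 neural crest genes reported (y axis) between Cp and Tp, Tp and Tn, and Cp and Cn, in the authors' processed values. Filled circles passed an adjusted p of 0.05. Ednrb and Pax7 are the genes that passed as higher in Cp than in Cn, and Gbx2 passed as lower there.

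Genes of neural crest derivatives also differed between the groups. Of 10 named genes of Schwann cell precursors and glia, 10 were lower in Cp than in Tp (median log2 fold change -2.58) and 10 higher in Tp than in Tn (median 2.58), where 8.1% and 5.33% of all probes passed in either direction. With the ring as background 2 of the 10 and 3 of the 10 passed. Their summed processed value was 13916 to 15106 on the 3 Tp arrays and 2258 to 2622 on Tn. It was 2270 to 2290 on Cn and 1906 to 2188 on Cp. Lgi4, which encodes a secreted protein of peripheral glia, was lower in Cp than in Tp by -4.06. Of 25 probes for 24 genes of peripheral neurons, 25 were lower in Cp than in Tp (median -3.72) and 23 higher in Tp than in Tn (median 2.63), or 5 of 25 and 3 of 25 with the ring as background. The neuron sum was 17253 to 19901 on Tp, 6531 to 7062 on Cn, 4008 to 4193 on Tn and 1927 to 2556 on Cp. Of the 25, 12 were lower in Cp than in Cn, or 1 with the ring as background, where 5.79% and 0.0688% of all probes passed. All these probes come from the table that the study chose for large changes on the same arrays. Th, the rate-limiting enzyme of catecholamine synthesis, was lower in Cp by -6.15. The share of Foxd3 and Ednrb signal that came from glia or neurons was not tested.

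In the head, 6 of 6 named genes of craniofacial mesenchyme were higher in Cp than in Tp (median log2 fold change 3.92) and 5 of 6 were higher in Cn than in Tn. Between Cp and Cn, where Pax7 and Ednrb passed, 3 of 6 did. Of all probes 8.1%, 1.27% and 5.79% passed in these comparisons. With the ring as background 1 of 6 passed between Cp and Tp (median 0.91) and 0 of 6 in each of the others. These genes, too, are from the study's choice. Their summed processed value was 915 to 1198 on Cp, 509 to 530 on Cn and 73 to 98 on the trunk arrays. Barx1, a homeobox gene of facial mesenchyme, was higher in Cp than in Tp by 3.33. Of 10 genes of the melanocyte lineage only Ednrb is named, so nothing further can be said here of pigment cells.

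Pax7 also marks muscle progenitors and dorsal neural tissue, so markers of both are given beside it. The summed processed value of 17 skeletal muscle probes was 3814 to 4459 on Tn, 1815 to 2343 on Cn, 268 to 386 on Tp and 153 to 184 on Cp. The least muscle signal was on Cp and the most on Tn. Of the 17 probes 16 were lower in Cp than in Cn, or 1 with the ring as background, where 5.79% and 0.0688% of all probes passed. The sum of 18 probes of the central nervous system was 3726 to 3918 on Cn, 959 to 1088 on Tn, 527 to 532 on Cp and 373 to 453 on Tp. In Cp 15 of the 18 were lower than in Cn, or 3 with the ring as background. The part of muscle or neural cells in the Pax7 level of Cp, Tn and Cn was not tested.

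Blood markers separated the sorted fractions. The sum of 10 erythroid probes was 918 to 2581 on the EGFP+ arrays and 99541 to 135887 on the EGFP- arrays, and that of 11 myeloid probes was 56 to 90 against 502 to 904. Their part in the levels of the members in Cn and Tn was not tested.

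Over the 9 arrays the log2 levels of Foxd3 and Ednrb correlated at 0.976, and Pax7 with them at -0.848 and -0.858. Of the 9 Pax7 values, 3 are the Tp readings under the limit, 1 of them an empty cell set to the lowest value of its array, so the Pax7 correlations rest in part on values that are not levels. These are descriptions over arrays that fall into 4 groups, and they carry no p. Among 305 other named probes, those close to Foxd3 included Gnat3 (Pearson r 0.991), 1700027L20Rik (0.991) and Tmie (0.989). Close to Ednrb were Gpr126 (0.992), an adhesion receptor of Schwann cells, Scn10a (0.990), a sodium channel of sensory neurons, and Mid2 (0.989). Closest to Pax7 were Ramp2 (0.987), a partner of the calcitonin-like receptor, Zcchc5 (0.986), Crispld1 (0.985) and Itgbl1 (0.964). All of them were chosen by the study for change across these groups, and the likeness is to be read within that choice.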

How the data were processed

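The authors deposited the spot intensity and the ring intensity that the scanner read on each array, together with processed intensity values. How the processed values were calculated, and with which software, the sources used here leave unsaid. The processed intensity values that the authors deposited correlated with spot intensity across probes at 0.999978 or more, and empty cells were set here to the array's lowest value. Spots flagged as bad were left out. The log2 values of 8 arrays, with all groups together and 4 residual degrees of freedom, were fitted in limma 3.58.1 under R 4.3.3. A probe was tested where it exceeded the mean blank by 2 SD on 2 or more of the 8 arrays. The fit was tested on simulated data.

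Correction for the ring by normexp (offset 50) is the usual setting for such slides and was made an alternative here because the ring follows the spot; this was decided with results of both settings known. The members, lists and rules were chosen with earlier results of these data known. Gene names come from the study's table of altered probes (306 of 347), and its values were not used. The named genes were the 3 members, every named probe of the crest list, up to 4 probes of each other list by mean size of change, and the 4 named probes most like each member over 9 arrays. Some genes that these rules named are not reported here, and the counts of the crest list are over the genes reported. Alternatives were blank spots as background, 10 added before log2, quantile normalization, empty cells left missing, no filter, a stricter filter, all 9 arrays, scan or replicate as a block, an intensity trend, and leaving out each array.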

Additional observations from a re-analysis of the deposited data

Results flagged for a closer look

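Results are listed here where the regional difference differed between the EGFP+ and EGFP- cells, or where a signal appeared on the array outside the fits. In limma, the interaction of region and EGFP was -2.11 on the log2 scale for Foxd3 and -2.32 for Ednrb, and it was 5.36 for Pax7, whose Tp readings were not above the limit of the blank spots. Tp replicate 3 had a log2 level of 6.76 for Foxd3 and 9.33 for Ednrb, both above the 2 Tn arrays. Groups of 2 or 3 arrays were too small to look for an array far from the others.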

How the results depend on the processing

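Of 280 values of the members under the alternatives, 241 kept their direction and their side of the threshold, 31 no longer passed, 7 passed newly and 1 changed sign. With the ring as background the sign of Pax7 between Cn and Tn changed (0.087). There the Pax7 values that no longer passed were 0.21 (Cp over Tp), -0.015 (Tp over Tn), 0.11 (Cp over Cn) and 0.13 (interaction), those of Foxd3 were -0.057 (Cn over Tn) and -0.86 (interaction), and those of Ednrb were 0.62 (Cp over Cn) and -2.01 (interaction). Probes called were then 43 (Cp over Tp), 28 (Tp over Tn), 15 (Cp over Cn), 7 (Cn over Tn) and 8 (interaction), against 1767, 1163, 1263, 276 and 1210. With the blank spots as background, Pax7 between Cp and Cn was 0.39 and Foxd3 between Cn and Tn -0.31, and neither passed. Foxd3 between Cn and Tn also did not pass with 10 added (-0.79), with quantile normalization (-1.51) or with the scan as a block (-1.44). Ednrb between Cn and Tn passed newly with 10 added (-0.95), with the stricter filter (-1.16), with the intensity trend (-1.16) and with the scan as a block (-1.32). With the scan as a block Foxd3 between Cp and Cn passed (1.02), and the probes called were 1904 (Tp over Tn), 2396 (Cp over Cn) and 2367 (interaction). The cause was not tested. Pax7 was not in the stricter filter, as its Tp spots were not above the limit.

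The replicate block changed the calls of Foxd3 between Cp and Cn (1.02, adjusted p = 0.044) and Ednrb between Cn and Tn (-1.16, adjusted p = 0.0427), moved the probes called between Cn and Tn to 455, and changed no other call. Arrays with the same number had deviations that correlated at 0.0836 to 0.433, highest for the groups that shared scans (Cp with Cn at 0.429, Tp with Tn at 0.433). The labels do not say that a number marks a shared litter or day, and the correlation of Cn with Tn was under the 0.1 asked of every pair. Pairing is neither established nor shown to be absent.

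Leaving out 1 array gave Foxd3 log2 fold changes of -4.08 to -3.46 (Cp over Tp), 2.92 to 3.35 (Tp over Tn), 0.69 to 1.35 (Cp over Cn), -1.99 to -1.33 (Cn over Tn) and -2.44 to -1.78 (interaction). Ednrb gave -3.55 to -3.41, 3.63 to 3.89, 1.36 to 1.51, -1.28 to -1.03 and -2.45 to -2.20 in the same order, and Pax7 gave 4.15 to 4.62, -4.20 to -3.78, 1.13 to 1.60, -1.18 to -0.76 and 5.12 to 5.59. The Pax7 values that involve Tp use readings not above the limit, so their ranges say nothing about the size or stability of a fold. Probes called were 830 to 1746, 711 to 1083, 570 to 1219, 122 to 275 and 607 to 941. The lone array left in a group is then assumed to vary like the others. Signal over background limits Pax7 in Tp and Foxd3 in Cn, and 2 arrays a group limit all tests.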
